A study of Homo sapiens with 2 samples.

Results

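The genes described here carry purinergic and adenosine signalling in airway epithelium. There are 10 of them, chosen by name: the ATP release channel PANX1, the ectonucleotidases ENTPD3 and NT5E, the ATP receptors P2RX4, P2RX5, P2RY2 and P2RY11, and the adenosine receptors ADORA1, ADORA2A and ADORA2B. They stand among 19775 genes that the platform annotation names on the array. All 19 probe sets annotated to them were taken from the deposited table of signal intensities. The stretched group was Calu-3 cells under cyclic strain for 18 h, with a sinusoidal pull reaching 20% at its peak and 0.7% at its lowest, applied for 2 s and released for 2 s. The non-stretched group was Calu-3 cells labelled with the same 18 h and no stretch. Both groups share the line, a human lung adenocarcinoma line and so a single tumour-derived model of airway epithelium, and collagen-coated flexible plates at about 80% confluence in medium with 10% serum. Each group was 1 array, so no value below has a replicate check and no test between the conditions is possible. Folds describe these 2 arrays.

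ATP leaves stressed or swollen epithelial cells through channels such as pannexin and through vesicles. On the cell surface, ectonucleotidases of the ENTPD family strip phosphates from ATP and ADP, and NT5E (CD73) turns the resulting AMP into adenosine. ATP itself opens P2X ion channels or activates G-protein-coupled nucleotide receptors, whereas adenosine acts on its own G-protein-coupled receptors. In airway epithelium ADORA2B raises cAMP and so activates chloride and fluid secretion, and nucleotide signalling through P2RY2 raises cell calcium and drives secretion by another route.

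Among the genes of this system, the adenosine receptor ADORA2B and the ATP-gated channel P2RX5 were each more than 3-fold higher in the stretched array. The adenosine-producing enzyme NT5E was higher in all 4 of its probe sets. The ATP-gated channel P2RX4 was 3.01-fold lower and the ATP-degrading enzyme ENTPD3 was 2.63-fold lower. In these readings the direction differed within the ectonucleotidases and within the ATP-gated channels. P2RX4, P2RX5 and ENTPD3 each rest on 1 measured single-gene probe set. With the floor at the 75th percentile P2RX5 no longer reached 2-fold and ENTPD3 no longer counted as measured. P2RY2 was 1.90-fold higher close to the floor, and PANX1, ADORA1, ADORA2A and P2RY11 differed by less than 2-fold, or their probe sets did not share a direction.

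Promoter sequences are shown for genes that differ in direction: ADORA2B and NT5E, higher in the stretched array, and P2RX4 and ENTPD3, lower. Each is the 250 bases before an annotated gene start in RefSeq (GRCh38.p14), on the plus strand, 5′ to 3′. Capitals mark TGACG, the core of the cAMP response element, on either strand. The windows are chr17:15944880-15945129 for ADORA2B, chr6:85449833-85450082 for NT5E, chr12:121209879-121210128 for P2RX4 and chr3:40386934-40387183 for ENTPD3.
ADORA2B: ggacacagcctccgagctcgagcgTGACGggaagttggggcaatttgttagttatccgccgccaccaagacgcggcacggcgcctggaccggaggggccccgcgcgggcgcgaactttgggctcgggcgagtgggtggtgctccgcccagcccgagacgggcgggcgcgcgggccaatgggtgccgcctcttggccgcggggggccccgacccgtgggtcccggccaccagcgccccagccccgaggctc
NT5E: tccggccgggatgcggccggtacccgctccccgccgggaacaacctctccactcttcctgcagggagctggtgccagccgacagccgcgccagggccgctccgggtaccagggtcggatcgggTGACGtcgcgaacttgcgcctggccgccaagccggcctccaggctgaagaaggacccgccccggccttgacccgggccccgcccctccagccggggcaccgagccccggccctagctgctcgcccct
P2RX4: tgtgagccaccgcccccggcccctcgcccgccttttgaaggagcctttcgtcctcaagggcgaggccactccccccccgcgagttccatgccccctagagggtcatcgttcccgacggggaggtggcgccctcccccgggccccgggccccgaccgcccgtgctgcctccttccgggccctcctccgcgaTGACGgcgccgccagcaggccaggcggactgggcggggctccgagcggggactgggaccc
ENTPD3: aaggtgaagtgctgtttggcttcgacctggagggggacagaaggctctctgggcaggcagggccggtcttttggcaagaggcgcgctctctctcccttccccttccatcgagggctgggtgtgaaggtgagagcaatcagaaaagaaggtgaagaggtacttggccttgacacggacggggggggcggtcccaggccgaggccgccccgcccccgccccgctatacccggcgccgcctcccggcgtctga

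The TGACG core occurred once in each of the ADORA2B, NT5E and P2RX4 windows, with its first base 226, 127 and 60 bases before the start, and not in the ENTPD3 window. Of the 7 members with a promoter in the table (the 4 printed and ADORA1, PANX1 and P2RY11), 4 held it, the fourth being PANX1. It stood in 21.7% of the 27305 promoter windows of this length. The motif was thus found before members that were higher and before P2RX4, which was lower. The GC box GGGCGG was found in 6 of the 7 windows and in 42.3% of all, and the AP-1 motif TGANTCA in 0 of the 7 and in 6.60% of all. The hypoxia response core ACGTG was found in 2 of the 7, PANX1 and P2RY11, and in 18.7% of all. Both strands were searched and matches could share bases with each other. The windows are rich in G and C, at 75.2% for ADORA2B and NT5E, 76.0% for P2RX4 and 66.0% for ENTPD3, against a median of 58.0% over all windows. A match is a string of letters in the window and shows no bound factor.

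The scale of the arrays bears on every fold. Signals ran from 0.70 to 13794 in the stretched and from 0.66 to 17518 in the non-stretched array, with medians over non-control probe sets of 28.4 and 28.7. Values below an array's median were set to it, and this floor marks where a probe set was taken as not measured. The difference of each gene is log2 stretched minus log2 non-stretched in its probe set of highest mean signal. The only error estimate that single arrays allow is the disagreement between probe sets of the same gene, which gave an SD of 0.36 (log2) for a single probe set over 5818 genes. This SD shrank with signal, from 0.50 in the dimmest of 4 equal bands to 0.38, 0.29 and 0.20 in the brightest. A gene was placed in a band by the dimmer of the probe sets compared, and a member probe set by its own signal. The SD of a band thus includes brighter partners and can be too small for a probe set of that signal. The estimate holds no variation between cultures or labelling reactions.

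The cultures carried epithelial markers, and 10 of 11 were above the floor in both arrays, with a summed signal of 52106 in the stretched and 60096 in the non-stretched array. The remaining one, the gland protein LTF, was below the floor in both arrays. Of the 11, 3 (CFTR, MUC1 and ELF3) were lower by 2-fold or more in the stretched array and 0 were higher. Of 16 markers of fibroblasts, blood cells and endothelium, 6 were above the floor in both arrays and the highest reached 105.5 in the stretched and 126.0 in the non-stretched array. The part of these marker differences in the values below was not tested. In RNA of whole cultures, fewer cells that express a gene and less of its RNA per cell cannot be told apart.

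**Figure D1:**
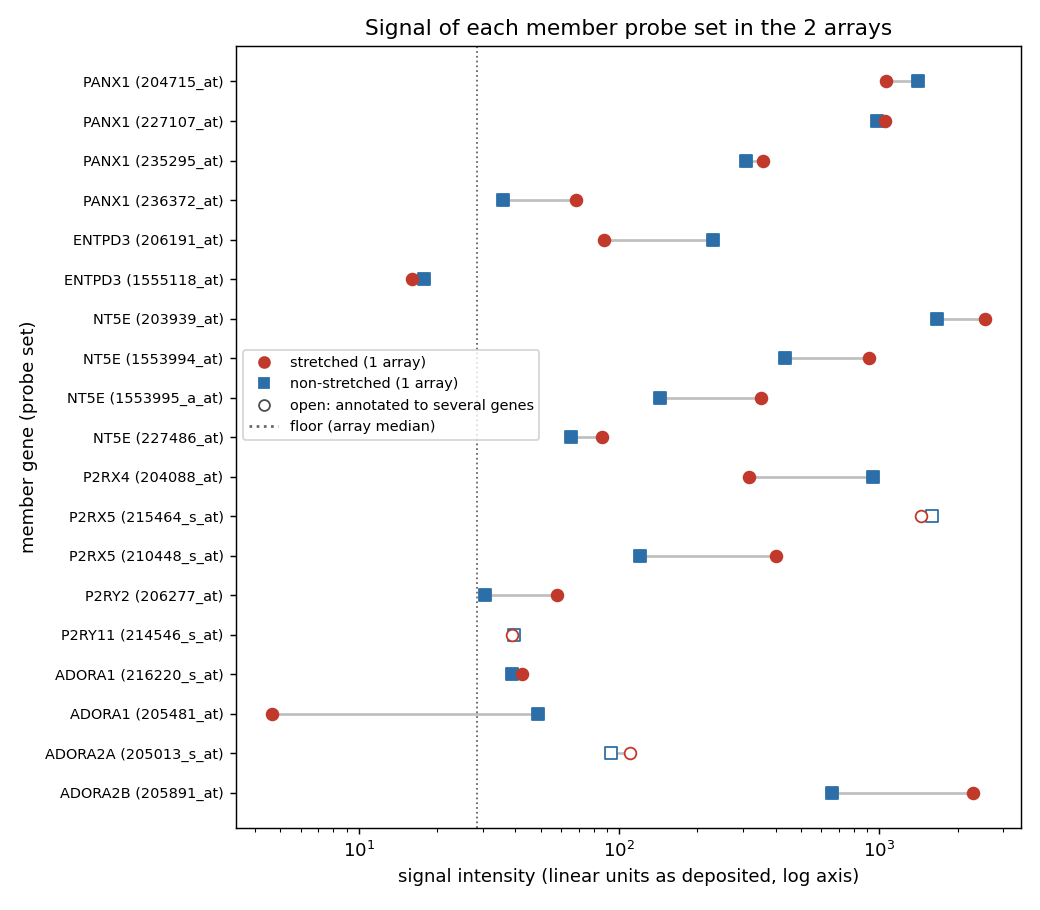
Signal intensity (log axis) of the 19 probe sets of the 10 genes, ordered by role, in the stretched (circles) and non-stretched (squares) array; open symbols are probe sets annotated to several genes and the dotted line is the floor. ADORA2B stands at 2291 in the stretched array against 660.0 in the non-stretched array, all 4 NT5E probe sets lie to the right in the stretched array, and P2RX4 and the measured ENTPD3 probe set lie to the left.

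Of the 8 genes with a probe set annotated to them alone, 2 were higher by 2-fold or more in the stretched array and 2 were lower by as much. Over the 13453 measured genes the shares were 7.78% higher and 7.49% lower, which is 1046 and 1008 genes. Centring on the spike-ins shifted the median of all genes to 0.16 and gave 1438 higher and 761 lower, and centring on 75th percentiles shifted it to -0.10 and gave 853 and 1218. At a 1.5-fold limit 4 members were higher and 2 lower, against 17.9% and 16.7% of all genes. At a 3-fold limit 2 were higher and 1 lower, against 2.87% and 2.81%. With 8 genes, each of these member counts rests on single probe sets. The members were also chosen with earlier results of these data known. Their counts beside those of all genes therefore cannot be read as an enrichment. The median member difference was 0.37 (log2), with a range of -1.59 to 1.80, and the median over all measured genes was 0.01.

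PANX1, the pannexin channel that releases ATP, showed no common direction. Its probe set of highest mean signal read 1063 in the stretched and 1403 in the non-stretched array, a log2 difference of -0.40. The other 3 probe sets lay on the other side of 0, at 0.10, 0.21 and 0.92. The last of these was dim, at 68.1 in the stretched and 36.0 in the non-stretched array. The mean over the probe sets was 0.21, so the sign of the PANX1 difference depended on the probe set.

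ENTPD3, a surface enzyme that hydrolyses ATP and ADP, read 87.3 in the stretched and 229.9 in the non-stretched array. It was lower in the stretched array by 2.63-fold (log2 difference -1.40), a size of 3.66 times the probe-set SD in its band of signal. Its second probe set was below the floor in both arrays, at 16.1 in the stretched and 17.8 in the non-stretched array, and carries no information on direction. With the floor raised to the 75th percentile ENTPD3 no longer counted as measured.

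NT5E, the AMP-hydrolysing enzyme that makes extracellular adenosine, was higher in the stretched array in each of its 4 probe sets. The probe set of highest mean signal read 2545 in the stretched and 1664 in the non-stretched array (log2 difference 0.61, 1.53-fold). The next read 910.3 in the stretched against 435 in the non-stretched array (1.07, 2.09-fold), and a further one 352 in the stretched against 144 in the non-stretched array (1.29, 2.45-fold). The dimmest read 86.3 in the stretched and 65.4 in the non-stretched array (0.40). Thus 2 of the 4 passed 2-fold while the probe set that stands for the gene did not. The first 3 differences were 3.12, 3.63 and 3.39 times the SD of their bands, and the dimmest was 0.80 times. NT5E was the only member with several measured probe sets that all lay on the same side of 0, among 3 such members.

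P2RX4, an ATP-gated cation channel found on the surface and in lysosomal membranes, read 315 in the stretched and 947 in the non-stretched array. The difference was -1.59 (log2), or 5.41 times the SD of its band. Of all measured genes, 2.79% were as low or lower. The gene has 1 probe set on the array, so no second probe set checks this value.

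P2RX5, another ATP-gated channel subunit, went the other way. Its only single-gene probe set read 403 in the stretched and 120.5 in the non-stretched array, 3.34-fold higher, and 2.20% of measured genes were as high or higher. This probe set carries the _s_at ending, given to probe sets that can bind several transcripts. A second probe set, annotated to P2RX5, its neighbour TAX1BP3 and their readthrough transcript, read 1451 in the stretched and 1598 in the non-stretched array (log2 difference -0.14), and its signal cannot be assigned to P2RX5. With the floor at the 75th percentile the P2RX5 difference was at least 0.80 and no longer reached 2-fold.

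P2RY2, the ATP and UTP receptor of the airway surface, read 58.0 in the stretched and 30.5 in the non-stretched array. The log2 difference of 0.93 fell just short of 2-fold, and it passed 2-fold at 1.09 when the arrays were centred on the spike-ins, a scaling that raised the median of all genes to 0.16. The non-stretched signal lay barely above the floor, where the probe-set SD was 0.50, so the difference was 1.86 times that SD. P2RY11, an ATP receptor that couples to both cAMP and calcium, is covered only by a probe set also annotated to the PPAN-P2RY11 readthrough transcript. It read 38.8 in the stretched and 39.4 in the non-stretched array, a difference of -0.02.

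Among the adenosine receptors of the member list, only ADORA2B could be given a direction from a probe set of its own. ADORA2B, the low-affinity receptor that stimulates adenylyl cyclase, read 2291 in the stretched and 660.0 in the non-stretched array. The difference of 1.80 (3.47-fold) was 9.13 times the probe-set SD of its band, the highest such ratio among the members, and 1.99% of measured genes were as high or higher. It too rests on 1 probe set. Other scalings put it between 1.69 and 1.95. The other floors and probe set rules could not change it, since its 1 probe set lay above every floor used. ADORA2A, which couples to the same G protein, is covered only by a probe set shared with the SPECC1L-ADORA2A readthrough transcript. That probe set read 110.5 in the stretched and 92.9 in the non-stretched array, a difference of 0.25.

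ADORA1, the receptor that inhibits adenylyl cyclase, had probe sets that disagreed. The one of higher mean signal, with the _s_at ending, read 42.5 in the stretched and 38.9 in the non-stretched array (0.13). The other read 4.64 in the stretched array, below the floor, and 48.9 in the non-stretched array, so it was at least 1.73-fold lower. Both non-stretched signals lay close to the floor. No direction is given for ADORA1.

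**Figure D2:**
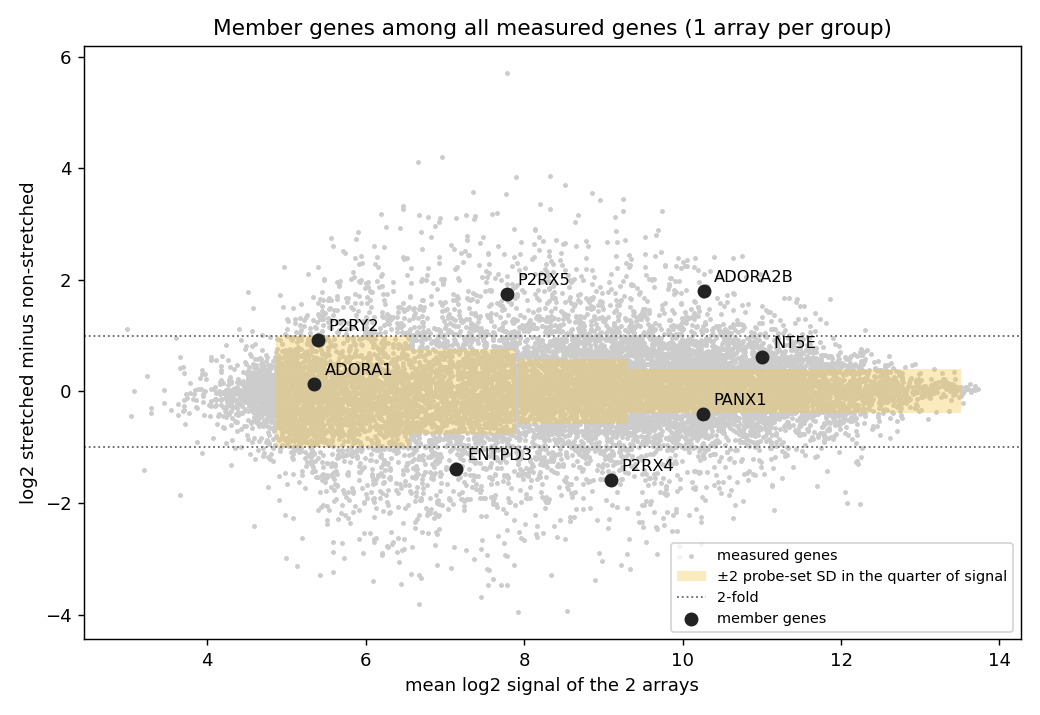
Log2 difference, stretched minus non-stretched, against the mean log2 signal of the 2 arrays for 13453 measured genes (grey) and the 8 members with a single-gene probe set (black); shading is ±2 probe-set SD in each band of signal and dotted lines mark 2-fold. ADORA2B, P2RX5, P2RX4 and ENTPD3 lie outside both the shading and the dotted lines, NT5E lies outside the shading only, and PANX1 lies at its edge.

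The wider pathway was followed in 75 further genes. The annotation named 73 of them, and 55 were measured. Of these, 4 (7.27%) were at least 2-fold higher in the stretched array and 7 (12.7%) at least 2-fold lower, against 7.78% and 7.49% of all measured genes. This split moved with the scaling, to 3 higher and 9 lower after centring on 75th percentiles and to 5 and 5 after centring on spike-ins. Their median difference was -0.05.

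Among 8 measured genes of ATP release, 1 was higher and 0 were lower. The connexin GJB2, a gap junction and hemichannel subunit, read 91.3 in the stretched array and was below the floor at 23.4 in the non-stretched array, at least 3.18-fold higher. The connexin GJA1 and the volume-regulated anion channel subunit LRRC8A read 5010 and 2265 in the stretched array, against 5619 and 2080 in the non-stretched array. These 2 genes differed by less than the probe-set SD of the whole array. The connexin GJB1, named after its values were seen, read 964 in the stretched and 1824 in the non-stretched array. It was 1.89-fold lower (log2 difference -0.92), just short of a call, and the list median was -0.002. SLC17A9, named after its values were seen, was at 0.26 and dim, at 67.9 in the stretched and 56.8 in the non-stretched array. Its other 2 probe sets were at 0.14 and 1.17, so the last of these passed 2-fold without entering the count.

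Of the 10 other measured ectonucleotidases and phosphatases, 0 were higher and 2 lower, with a median of -0.38. The acid phosphatase ACP3, which can also hydrolyse extracellular AMP, read 53.3 in the stretched and 186.7 in the non-stretched array, 3.50-fold lower, and a second probe set gave -1.02 (log2). ENTPD5, an enzyme of the endoplasmic reticulum that hydrolyses UDP and GDP, was 2.16-fold lower, though its other 2 probe sets were at -0.35 and -0.14. The intracellular ENTPD4 was at -0.39 and ENTPD6 at 0.14. ENTPD1 (CD39) and ENTPD2, named after their values were seen, were dim. ENTPD1 read 27.6 in the stretched array, below the floor, and 37.2 in the non-stretched array, at least 1.31-fold lower, and ENTPD2 was at -0.10 near the floor.

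Only 4 of the 11 other purine receptors named on the array were measured. For 3 of these, P2RX2, P2RX6 and P2RY12, 1 of the 2 values lay below the floor, so the difference is only a bound and 0 calls do not show that they stayed under 2-fold. P2RY1, an ADP receptor, read 368 in the stretched and 544 in the non-stretched array, a difference of -0.56. P2RX2 read 39.7 in the stretched array and was below the floor in the non-stretched array, at least 1.38-fold higher. P2RX7, which neighbours P2RX4 on chromosome 12 and was looked up after its values were seen, was below the floor in both arrays, at 4.74 in the stretched and 11.5 in the non-stretched array.

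Of 10 measured genes of adenosine uptake and metabolism, 1 was higher and 2 were lower. PNP, purine nucleoside phosphorylase, which breaks down inosine, read 2141 in the stretched and 1005 in the non-stretched array, 2.13-fold higher. SLC29A3, a nucleoside transporter of lysosomes, read 99.6 in the stretched and 403 in the non-stretched array, 4.05-fold lower. The concentrative nucleoside transporter SLC28A3 read 53.7 in the stretched and 202.4 in the non-stretched array, 3.77-fold lower, while a second probe set gave -0.24. ADK, which phosphorylates adenosine inside the cell, was at 0.54, and AHCY, which releases adenosine from S-adenosylhomocysteine, at 0.36. The plasma membrane transporter SLC29A1, named after its values were seen, lay the other way, at 0.78 and at 1.27 in its other probe set. SLC29A2 and SLC29A4, also named after their values were seen, were lower, at -0.41 and -0.74. Their other probe sets gave -0.40 and -0.76, and SLC29A4 was close to the floor at 29.1 in the stretched array. SLC29A1 was thus the only measured nucleoside transporter that was higher.

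Of 23 measured genes that couple these receptors to cAMP and calcium, 2 were higher and 3 lower. The adenylyl cyclases ADCY1 and ADCY3 were 2.84-fold and 2.73-fold higher, at 145.2 and 582 in the stretched array against 51.2 and 213.6 in the non-stretched array, and the other ADCY3 probe set was at 1.23. On the calcium side, the phospholipase PLCB1 was 2.54-fold lower, the inositol trisphosphate receptor ITPR2 at least 2.47-fold lower (-1.38 in its other probe set) and the G protein subunit GNA15 2.13-fold lower. The rest, named after their values were seen, went both ways. GNA11 was at 0.46, PLCB3 at 0.52, PLCB4 at 0.04 (-0.29 in its other probe set) and ITPR3 at 0.22. GNAQ was at -0.43, ITPR1 at -0.52 and PLCB2 at -0.93. The other 4 measured probe sets of GNAQ ran from -0.70 to 0.17, and the other 2 of ITPR1 were at -0.18 and 0.44. The other measured adenylyl cyclases lay between -0.19 (ADCY7) and 0.84 (ADCY9), and the list median was 0.04. For both of these genes the other measured probe set had the opposite sign, at 0.37 for ADCY7 and -0.21 for ADCY9. The stimulatory subunit GNAS was at -0.10, with its other 8 probe sets between -0.06 and 0.80. The inhibitory subunit GNAI3 was at 0.36, with its other 2 at 0.21 and 0.51.

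**Figure D3:**
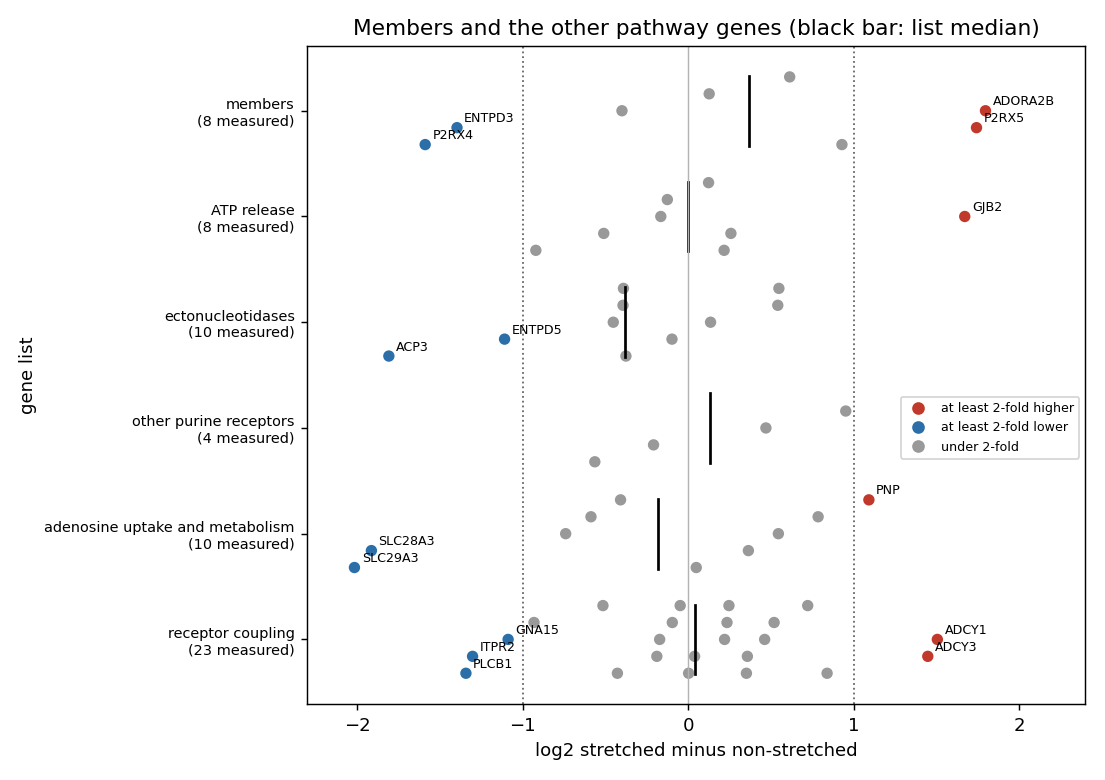
Log2 difference, stretched minus non-stretched, of the members and of 5 lists of pathway genes, each point 1 measured gene, with black bars at the list medians and dotted lines at 2-fold. Named points passed 2-fold; 4 of the 55 pathway genes lie to the right of the lines and 7 to the left, and the list medians lie between -0.38 and 0.37.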

How the data were processed

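Total RNA was extracted on spin columns and 6 µg was made into biotinylated cRNA for Affymetrix arrays, per the labels' protocols. The authors deposited 1 linear signal intensity per probe set and array for 54675 probe sets. Neither the summarisation nor the scaling is given in the sources used here.

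The 62 control probe sets were left out. Intensities were used as deposited, because the array medians differed by -0.02 (log2), while 18 hybridisation spike-ins had a median difference of -0.11. Gene names came from the platform annotation, with symbols updated through the gene ID: 41091 probe sets had 1 gene, 1801 several and 11721 none. No count used probe sets with several genes, so ADORA2A and P2RY11 were described only. The floor was the 50th percentile, and called means at least 2-fold. The text names all members, pathway genes past 2-fold and the 2 of highest mean signal per list. Other pathway genes in the text were named after their values were seen. Members, lists and rules were chosen with earlier results of these data known.

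Alternatives were other floors, folds, scalings and probe set rules. The code for the calls and the SD was run on simulated data with the same SD at every signal and changed genes well above the floor. That run checks the code only, and it says nothing on the error of these arrays or on dim genes. Python 3.11.15, numpy 2.4.6, pandas 2.3.3, statsmodels 0.14.6 and matplotlib 3.10.9 were used. The number of arrays limits the precision.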

Additional observations from a re-analysis of the deposited data

How the results depend on the processing

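Every difference compares 1 array with 1 array, and dim probe sets (P2RY2, ADORA1) are the least certain. Of 52 member differences recomputed under other settings, 48 moved by less than the probe-set SD of 0.36, 4 moved by more and 0 of the called ones changed sign. The 4 were P2RX5 with the floor at the 75th percentile (0.80), PANX1 as a mean over probe sets (0.21), and ADORA1 as that mean (-0.33) and leaving out _x_at and _s_at probe sets (-0.79). Many of the 48 could not move. Averaging changes nothing for a member with 1 measured probe set, and dropping the floor changes nothing where both values lie above it. Settings in which a member was lost are not among the 52. These were ENTPD3, P2RY2 and ADORA1 at the higher floor and P2RX5 without _s_at probe sets. With the floor at the 75th percentile, 5 members were measured, and counts were 1 higher and 1 lower for members, 2 and 0 for the other pathway genes, and 549 and 394 for all genes. Those fewer calls follow from the floor itself, which sets more values equal. Without _x_at and _s_at probe sets, P2RX5 was lost, 1 member was higher and the member median was -0.40. At 1.5-fold 4 members were higher, and at 3-fold 1 was lower. The probe-set SD was 0.23 with the higher floor and 0.20 in the brightest band of signal, a split added after the data were seen. Using no floor, averaging probe sets, removing a loess trend and centring on the 75th percentile or the spike-ins left all member, pathway and all-gene counts within 1.5 times. Centring on the spike-ins raised the members counted as higher to 3, since P2RY2 then stood at 1.09. No paired analysis was possible because each group has 1 array.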

Other observations

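The following genes were picked after their values were seen. SLC29A1, GNA11, PRKACB and P2RY12 were all higher in the stretched array, so they give no view of the pathway's direction. SLC29A1, the equilibrative transporter that carries adenosine across the plasma membrane, read 2157 in the stretched and 1252 in the non-stretched array. GNA11, a G protein subunit that activates phospholipase C, was at 0.46, with its other 5 probe sets between 0.49 and 0.77. The catalytic subunit of cAMP-dependent protein kinase PRKACB was at 0.35, with its other 2 probe sets at 0.63 and 0.95. P2RY12, an ADP receptor of platelets and microglia, read 55.5 in the stretched and 2.66 in the non-stretched array, at least 1.93-fold higher, from 1 probe set.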
